A study of Mus musculus with 12 samples.

Results

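The Ly6 surface antigens described here are 5 mouse genes, Ly6a, Ly6e, Ly6c1, Ly6c2 and Ly6g, taken by name from the 27998 genes of the deposited UMI tables. A UMI (unique molecular identifier) tags a single captured RNA molecule. All 5 were present in all 12 libraries. Isg15, a ubiquitin-like gene strongly induced by interferon, was read beside them.

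Bone marrow c-Kit+ cells, which hold the hematopoietic stem and progenitor cells (HSPCs), were profiled by 3′ single-cell RNA sequencing in mice of 4 genotypes on a C57BL/6 background. WT mice lacked Mx1-Cre. E2-KO mice were Mx1-Cre+;Ezh2 f/f, G12D mice were Mx1-Cre+;NRas G12D+/− and G12D/E2-KO mice carried Mx1-Cre with both alleles. All mice, WT included, had received 5 injections of pIpC, a double-stranded RNA that induces interferon and through it the Mx1 promoter driving Cre, at 8 to 12 weeks of age per the labels, whereas the study's methods give a younger age. Marrow was taken at T1, which was 2 weeks later, at T2 after 2 months and at T3 after 4 months, and 1 library was made for each genotype and time point. Presence of Cre therefore cannot be told apart from the mutations in any comparison of a mutant with WT. The design asked how activated NRas and loss of the histone methyltransferase gene Ezh2, alone and together, change HSPCs as leukemia develops. How many mice gave each library is not given in the sources used here.

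Ly6 proteins are small cell surface proteins held in the membrane by a lipid anchor, and several of them are standard antibody targets in mouse hematology. Ly6a is Sca-1, used to isolate hematopoietic stem cells, and it is also an interferon-inducible gene in many cell types. Ly6c1 and Ly6c2 encode the Ly6C antigen of monocytes and their precursors, Ly6g encodes the antigen of neutrophils, and Ly6e is broadly expressed and interferon-inducible. The Gr1 antibody, which binds the Ly6g and Ly6c proteins, was among the lineage antibodies of the flow cytometry in the study, whereas the labels name only c-Kit beads for these libraries.

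All 5 genes are protein coding and lie within 204 kb of chromosome 15 in GRCm38 (GENCODE vM21), from base 74955051 to base 75159126. Ly6e spans 74955051 to 74959905 on the plus strand, Ly6a 74994877 to 74998031 on the minus strand, Ly6c1 75044018 to 75048830 on the minus strand, Ly6c2 75108158 to 75111970 on the minus strand and Ly6g 75155240 to 75159126 on the plus strand. Isg15 lies on chromosome 4 from 156199424 to 156200818 on the minus strand.

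RefSeq promoters (GRCm38.p6, 250 bases before to 50 after the start of a gene) were matched for 3 of the 5 members, Ly6c1, Ly6c2 and Ly6g, and for Isg15. Ly6a and Ly6e were not matched. The promoters are shown because the members are compared with Isg15 below, and capitals mark a 16-base stretch held by all 3 Ly6 promoters or, in Isg15, matches of the interferon-stimulated response element.
Ly6c1, chr15:75048788-75049087, minus strand: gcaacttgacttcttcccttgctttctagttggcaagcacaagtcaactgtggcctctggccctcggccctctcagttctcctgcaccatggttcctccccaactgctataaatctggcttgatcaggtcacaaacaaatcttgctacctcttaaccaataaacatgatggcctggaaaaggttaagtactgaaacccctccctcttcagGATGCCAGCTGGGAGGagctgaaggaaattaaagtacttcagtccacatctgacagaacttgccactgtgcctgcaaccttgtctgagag
Ly6c2, chr15:75111922-75112221, minus strand: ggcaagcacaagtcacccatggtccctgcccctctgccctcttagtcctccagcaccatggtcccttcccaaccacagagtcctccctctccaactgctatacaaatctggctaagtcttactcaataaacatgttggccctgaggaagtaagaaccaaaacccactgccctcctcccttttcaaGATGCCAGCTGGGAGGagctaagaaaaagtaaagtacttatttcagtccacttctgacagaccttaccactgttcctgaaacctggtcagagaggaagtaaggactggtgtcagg
Ly6g, chr15:75155011-75155310, plus strand: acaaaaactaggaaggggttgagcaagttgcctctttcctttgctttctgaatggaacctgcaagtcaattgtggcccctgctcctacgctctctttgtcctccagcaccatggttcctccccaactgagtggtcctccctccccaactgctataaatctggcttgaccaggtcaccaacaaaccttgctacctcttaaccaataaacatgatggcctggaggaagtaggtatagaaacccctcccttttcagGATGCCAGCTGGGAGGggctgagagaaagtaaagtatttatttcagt
Isg15, chr4:156200769-156201068, minus strand: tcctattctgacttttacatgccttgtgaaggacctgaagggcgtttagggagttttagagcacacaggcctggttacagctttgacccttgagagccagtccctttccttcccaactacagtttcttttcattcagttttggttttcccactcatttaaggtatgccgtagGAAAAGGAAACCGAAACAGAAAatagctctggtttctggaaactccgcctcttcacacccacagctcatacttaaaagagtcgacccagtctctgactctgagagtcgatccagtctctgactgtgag

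The shared stretch GATGCCAGCTGGGAGG was found in 7 of 32851 RefSeq promoters of the same length, searched on both strands, or 0.0213%. These belonged to Ly6c1, Ly6c2, Ly6g and Ly6a2. The stretch was picked as the longest one common to the Ly6 promoters shown, so its rarity is not a test. It lies before the start in Ly6c1 (−40 to −25) and Ly6c2 (−65 to −50) and after it in Ly6g (3 to 18). The response element was searched on both strands as GAAA, 2 bases of any kind and GAAA again, and was present in 3.44% of these promoters. Isg15 held 3 overlapping matches between bases −78 and −57 from its start. The response element has no match in the 3 Ly6 windows shown, which says only that these letters are not in these 300 bases.

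The libraries held 2350 to 3767 counted cells and 12636998 to 23646292 UMIs each, with median UMIs per cell of 3780.5 to 6975.5. Of the 5648 cells in the G12D T1 table, 2896 (51.3%) matched cells of the G12D/E2-KO T1 table and were counted once, in the latter, where they are 95.1% of cells, so 32701 of 35597 deposited cells were used. Ezh2, the deleted gene, was at 103 to 133 CPM (counts of a gene per M UMIs of the library, or of the library and class) in WT, 81.7 to 103 in G12D, 27.7 to 34.6 in E2-KO and 20.7 to 25.3 in G12D/E2-KO, with no overlap between the libraries with and without the deletion. Which library the matched cells came from is not known, and their Ezh2 was at 20.9 CPM, in the range of the libraries with the deletion. Xist, which is transcribed in female cells, was at 1296 to 1357 CPM in the T3 libraries of WT, E2-KO and G12D and at most 0.608 CPM in every other library, G12D/E2-KO T3 included, so at T3 sex cannot be told apart from the double mutant genotype. Time point was a factor in the fits below, so Xist as a covariate in them is close to marking G12D/E2-KO T3 alone.

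Cells were placed in 10 classes, each named "-like" from marker lists that hold no Ly6 gene: HSC/MPP-like (stem cells and multipotent progenitors), GMP/early GN-like (granulocyte-macrophage progenitors with early granulocytes), late GN-like (late granulocytes), ProMo-like (promonocytes), EryP/early Ery-like and late Ery-like (erythroid cells), baso/mast-like, Meg-like, DC-like and B lymphoid-like. The ending is left out from here on. Ly6 and interferon genes were kept out of the clustering, and 10.1% of cells stayed unnamed. The marker list of DC does hold Bst2, which is also among the 37 interferon-response genes used below, so the naming of that class rests in part on it.

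In WT marrow each member had its own place in the hierarchy. Ly6g sat in late GN at 456 ± 125 CPM (SD, n = 3 libraries), where the WT libraries held 343 to 590.3, and the next class, DC, was at 24.3 ± 20.0 (n = 2). Late GN held 76.0% to 91.5% of a library's Ly6g UMIs over the 12 libraries. Ly6g was thus close to a marker of a single class in these data.

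Ly6c2 was highest in ProMo at 2824 ± 183 CPM, followed by GMP/early GN at 2252 ± 161 and late GN at 1253 ± 105 (SD, n = 3), and these 3 did not overlap among the WT libraries. DC at 1035 ± 512 (n = 2) overlapped late GN. In its cluster 25, led by MHC class II genes, Ly6c2 was at 1106 (T1) and 275 (T2) CPM, below the late GN range of 1162 to 1368. In the 12 WT cells of its cluster 26, Ly6c2 was at 1954 CPM. HSC/MPP was at 166 ± 14.8, and erythroid cells, Meg, baso/mast and B lymphoid cells were each at 59.8 CPM or less on average. Ly6C RNA therefore followed the granulocyte and monocyte branches, with a low level in the stem and multipotent class.

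Ly6c1 had the same order at its top, ProMo at 34.6 ± 2.88 CPM, GMP/early GN at 24.7 ± 2.70 and late GN at 18.1 ± 0.764, with no overlap between neighbours. Its UMIs made up 1.18% to 2.04% of the Ly6c1 and Ly6c2 UMIs of a library, with a median of 1.46%, and the class medians were 1.42% in ProMo, 1.44% in GMP/early GN and 1.63% in late GN. The transcripts share sequence. Of the 50-base words in the last 500 bases of Ly6c1 transcripts, 29.2% occur in transcripts of another gene, 22.7% in those of Ly6c2, and of the Ly6c2 words 34.2% occur in those of Ly6c1. For 90-base words the shares with the other copy were 12.0% and 19.3%. A read within such a word cannot be assigned to one copy, so Ly6c1 values are uncertain. Ly6a shared 8.13% of its 50-base words with another gene, Ly6g 0.297% and Ly6e none.

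Ly6e was broad. It was highest in DC at 1627 ± 66.5 CPM (n = 2) and B lymphoid cells at 1623 ± 265 (n = 3), which overlapped, then ProMo at 1124 ± 94.5, baso/mast at 981 ± 228 and HSC/MPP at 789.9 ± 55.6. Late GN was lowest at 37.3 ± 8.88 and lay apart from late Ery at 155 ± 38.6. Ly6e and Ly6g thus stood at opposite ends within the granulocyte branch, Ly6e low and Ly6g high in late GN.

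Ly6a, the Sca-1 gene, had its highest value in the class named DC, at 284 and 625 CPM in the 2 WT libraries with at least 20 such cells (28 and 65 UMIs). Among WT cells of this class, 78 Ly6a UMIs lay in the 12 cells of cluster 26, at 1604 CPM. Its top genes included Jchain, Mzb1, Ly6d and Cd74, and 7 markers of the DC list were raised in it. A further 16 Ly6a UMIs lay in the 39 cells of cluster 25, led by MHC class II genes, at 94.8 CPM. In cluster 25 alone Ly6a was at 153 CPM at T1 and 28.9 at T2, the latter from 2 UMIs and within the range of the classes that follow. The high value of the class thus rests largely on the 12 cells of cluster 26, whose type was not tested further. B lymphoid cells, ProMo, HSC/MPP, late GN, baso/mast and GMP/early GN followed between 37.7 ± 14.2 and 17.1 ± 2.36 CPM (n = 3), and each overlapped its neighbour in the order. Erythroid cells were below 1 CPM. The HSC/MPP level of 30.9 ± 11.2 did not stand out from that of ProMo at 32.7 ± 4.13. Isg15 had a different distribution, with late Ery at 431 ± 39.2 CPM and every other class at 35.2 or below.

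**Figure D1:**
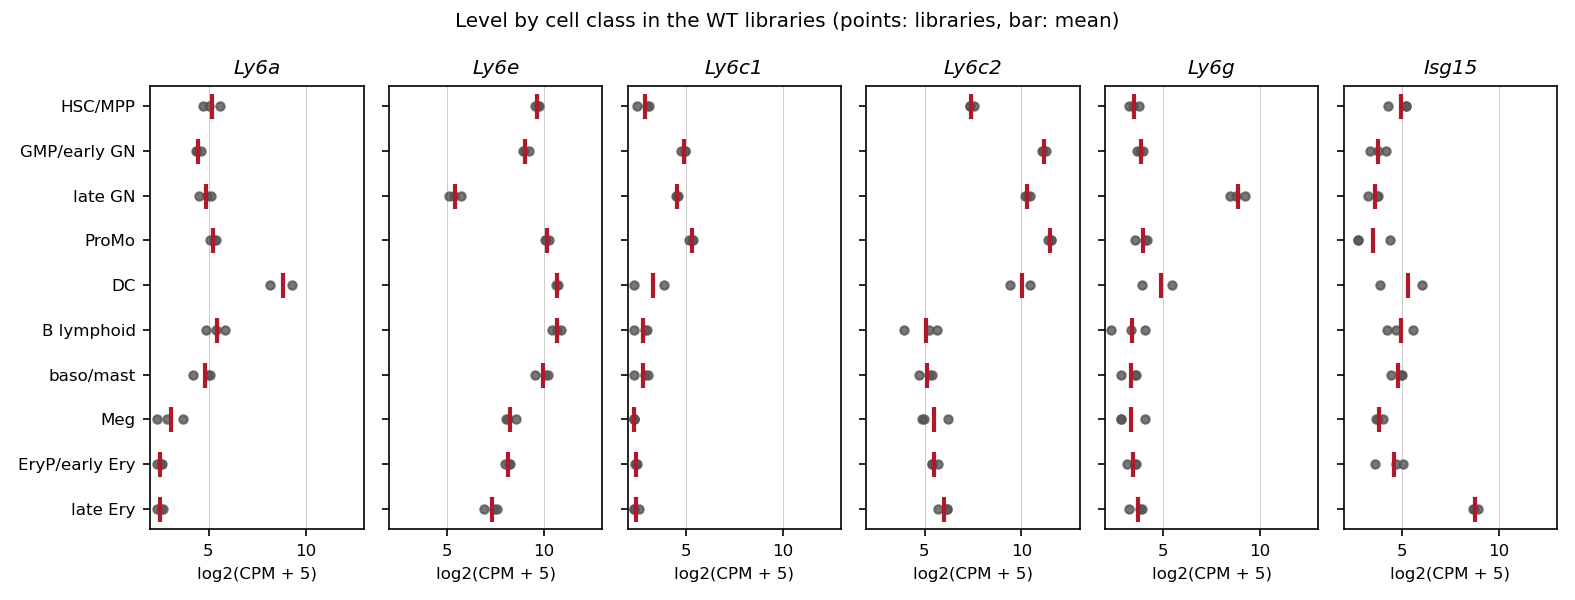
Levels of the 5 Ly6 genes and Isg15 in 10 cell classes of WT marrow, as log2(CPM + 5) on the horizontal axis. Points are the WT libraries (3, or 2 for DC) and red bars are their means; Ly6g stands out in late GN at 456 CPM, Ly6c2 in ProMo at 2824 CPM and Isg15 in late Ery at 431 CPM.

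Genes were ranked by how closely their levels followed each member over 84 sums (7 classes in 12 libraries), among 4798 genes with a mean of at least 20 CPM. Ly6g was followed most closely by Lcn2 (r = 0.97), Pirb (0.96) and Chil1 (0.96), of which Lcn2 encodes a protein of neutrophil granules. Ly6c1 was followed by Ly6c2 (r = 0.97), Mtus1 (0.94) and Slpi (0.93), and Ly6c2 by Mtus1 (0.96), Slpi (0.96) and Anxa3 (0.95). Ly6e was closest to Zeb2 (0.93), Prdx1 (0.93) and Phgdh (0.91), and among those closest to Ly6a were Kctd12 (0.86) and Cd53 (0.86). These values describe sums that share libraries and classes.

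Over all cells of a library, the G12D libraries had more Ly6a, Ly6c1 and Ly6c2 than the WT libraries, but the spread between time points was wide, and no member passed the adjusted threshold of 0.05 in any comparison of genotypes. In a sum over all cells, fewer cells of a type and less RNA per cell cannot be told apart.

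Ly6c2 was at 739.9, 981 and 785 CPM in WT at T1, T2 and T3, at 1144, 907 and 652 in E2-KO, at 1647, 1124 and 1771 in G12D and at 1706, 1202 and 1109 in G12D/E2-KO. All 3 G12D and all 3 G12D/E2-KO libraries lay above all 3 WT libraries, and E2-KO overlapped WT. The mean was 835 ± 128 in WT and 1514 ± 344 in G12D (SD, n = 3), a log2 difference of 0.88 (SE 0.25, adjusted p = 0.287, edgeR quasi-likelihood test). Against WT, G12D/E2-KO differed by 0.60 (SE 0.25, adjusted p = 0.168, edgeR). ProMo, the class with the highest Ly6c2, made up 7.62%, 6.29% and 7.66% of cells in WT, 15.8%, 9.29% and 16.0% in G12D and 9.20%, 11% and 12.2% in G12D/E2-KO. The part of these shares in the Ly6c2 level was not tested.

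Ly6c1 was at 8.85, 12.8 and 10.8 CPM in WT, 20.0, 12.7 and 13 in E2-KO, 23.3, 19.4 and 31.2 in G12D and 22.4, 25.0 and 17.3 in G12D/E2-KO. Again both genotypes with NRas G12D lay above WT in every library. The log2 difference was 1.21 (SE 0.27, adjusted p = 0.212, edgeR) for G12D and 0.94 (SE 0.27, adjusted p = 0.0672) for G12D/E2-KO. The latter passed without G12D T3 (adjusted p = 0.0448, edgeR) and without G12D/E2-KO T3 (adjusted p = 0.0236).

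Ly6a was at 17.9, 14.8 and 15.3 CPM in WT, 26.0, 17.0 and 20.4 in E2-KO, 63.5, 19.0 and 73.0 in G12D and 68.5, 17.9 and 25.5 in G12D/E2-KO. The high values were G12D T1 and T3 and G12D/E2-KO T1, and at T2 all 4 genotypes lay between 14.8 and 19.0. G12D differed from WT by 1.56 on the log2 scale (SE 0.45, adjusted p = 0.293, edgeR) and G12D/E2-KO by 0.98 (SE 0.45, adjusted p = 0.202).

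Ly6e was at 483, 450.3 and 340.3 CPM in WT, 604, 613 and 389.6 in E2-KO, 568, 422 and 720.0 in G12D and 755, 544 and 542 in G12D/E2-KO. G12D/E2-KO lay above WT in every library, and the other mutants overlapped WT. The log2 differences from WT were 0.31 (SE 0.23) in E2-KO, 0.48 (SE 0.23) in G12D and 0.48 (SE 0.23) in G12D/E2-KO, with adjusted p from 0.212 to 0.524 (edgeR). Without E2-KO T2 the difference of E2-KO was 0.13. In G12D the T3 library was highest, and T2 lay below WT at T2.

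Ly6g behaved differently from the other 4. It was at 117, 66.9 and 103 CPM in WT, 31.8, 21.0 and 42.4 in E2-KO, 132, 79.2 and 106 in G12D and 123, 33.7 and 18.9 in G12D/E2-KO. E2-KO lay below WT in every library, at a mean of 31.7 ± 10.7 against 95.7 ± 25.9 (SD, n = 3), and G12D/E2-KO lay above WT at T1 and below it at T2 and T3. The log2 difference was −1.58 in E2-KO (SE 0.56, adjusted p = 0.232, edgeR), 0.17 in G12D (SE 0.54) and −0.90 in G12D/E2-KO (SE 0.56, adjusted p = 0.349). Without G12D/E2-KO T1 both differences passed, at −1.61 for E2-KO (adjusted p = 0.0449, edgeR) and −1.75 for G12D/E2-KO (adjusted p = 0.0447), and without G12D/E2-KO T3 that of E2-KO did (adjusted p = 0.0136) while that of G12D/E2-KO shrank to −0.31 (adjusted p = 0.535). With Xist as a covariate the difference was −1.64 in E2-KO (adjusted p = 0.0101, edgeR) and −0.33 in G12D/E2-KO (adjusted p = 0.470).

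Set against all 12848 genes tested over all cells, edgeR called 0 of 5 members in E2-KO against WT where 1.59% of genes were called, 0 of 5 in G12D against WT where 0.109% were called and 0 of 5 in G12D/E2-KO against WT where 5.69% were called. At an unadjusted p under 0.05 there were 1 lower member (Ly6g), 3 higher (Ly6a, Ly6c1 and Ly6c2) and 2 higher (Ly6c1 and Ly6c2), respectively, where 16.1%, 11.8% and 26.2% of all genes were below 0.05. DESeq2 called 0, 2 (Ly6c1 and Ly6c2 in G12D) and 1 (Ly6c1 in G12D/E2-KO). The share of all genes that DESeq2 called was not computed. The median log2 difference of the 5 members was 0.31, 0.88 and 0.60, beside medians of all genes between −0.01 and 0.01.

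The remaining comparisons over all cells gave no call among the members either. The interaction, meaning how far the double mutant departs from the added changes of the single mutants on the log2 scale, called 0.0934% of genes and 0 members, with 0 members at an unadjusted p under 0.05 and 0 by DESeq2. For Ly6a it was −0.91 (SE 0.62, adjusted p = 1, edgeR). G12D/E2-KO against G12D called 1.36% of genes and 0 members, with 0 at the unadjusted threshold and 0 by DESeq2, and without G12D/E2-KO T1 it called Ly6g (−1.94, adjusted p = 0.0473, edgeR). G12D/E2-KO against E2-KO called 0.0934% of genes and 0 members, with 1 (Ly6c2, higher) at the unadjusted threshold and 0 by DESeq2.

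**Figure D2:**
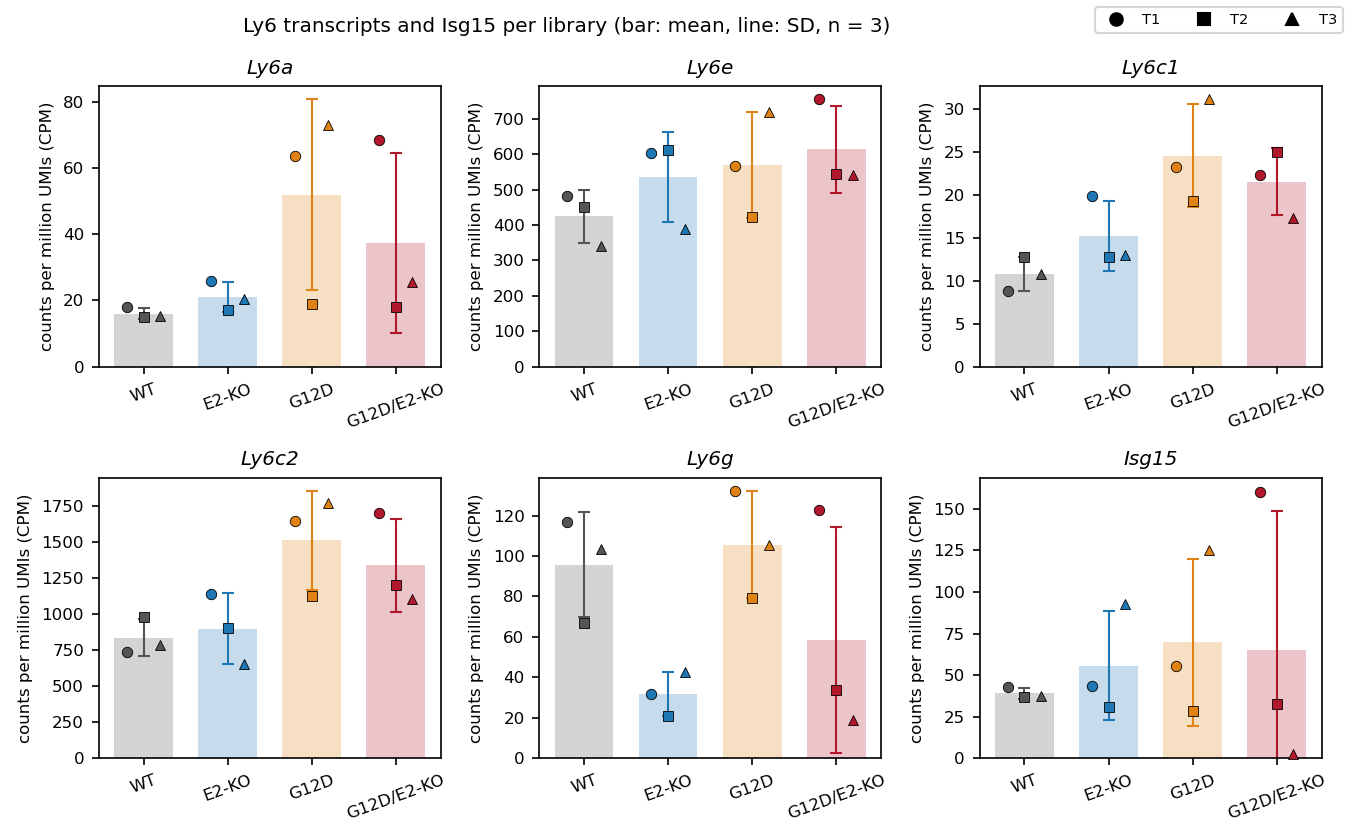
CPM of the 5 Ly6 genes and Isg15 in each library, by genotype on the horizontal axis, with symbols for T1, T2 and T3. Bars are means and lines are SD over 3 libraries, cut at 0; Ly6c2 in G12D runs from 1124 to 1771 CPM above the WT range of 739.9 to 981, and Ly6g in E2-KO runs from 21.0 to 42.4 below the WT range of 66.9 to 117.

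Time after pIpC bears on the interferon question, since pIpC itself induces interferon. Isg15 averaged 75.4 ± 56.7 CPM at T1, 32.1 ± 3.64 at T2 and 64.5 ± 55.1 at T3 (SD, n = 4 genotypes). Ly6a averaged 44.0 ± 25.7, 17.2 ± 1.77 and 33.6 ± 26.6, with T2 lower than T1 in 3 mutants by more than in WT. The log2 difference of T2 from T1 was −1.18 for Ly6a (SE 0.39, adjusted p = 0.908, edgeR), −1.14 for Ly6g (SE 0.48) and −1.20 for Isg15 (SE 1.08). In T2 against T1 and in T3 against T1 edgeR called 0% of genes and none of the 5 members, with 2 members lower (Ly6a and Ly6g) and 0 at an unadjusted p under 0.05, where 4.66% and 13.1% of all genes were below it, and 0 by DESeq2 in both. Xist was high in the T3 libraries of WT, E2-KO and G12D and in no T1 library. In T3 against T1, time after pIpC and sex therefore cannot be told apart.

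Within cell classes, members were tested where they passed the filter on low counts, which left 28 pairs of a member and a class in the 7 classes that held 20 or more cells in each library. Ly6e and Ly6c2 were tested in 7 classes, Ly6g in 6, Ly6a in 5 and Ly6c1 in 3.

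For E2-KO against WT, edgeR called 1 of 28 pairs, lower, where 1.44% of all gene and class pairs were called, with 2 higher and 3 lower at an unadjusted p under 0.05 beside 13.6% of all pairs. For G12D against WT it called 0 of 28 where 0.152% were called, with 10 pairs higher and 0 lower at an unadjusted p under 0.05, beside 5.36% of all pairs in either direction. For G12D/E2-KO against WT it called 3 of 28 where 2.8% were called, 1 higher and 2 lower, with 9 higher and 2 lower at the unadjusted threshold beside 16.8%. Ly6g in EryP/early Ery, 1 of the lower pairs in both, passed the filter on low counts only through WT and G12D libraries. The 3 lower pairs of E2-KO lay in HSC/MPP, EryP/early Ery and late Ery. In HSC/MPP and late Ery, Ly6g averaged 6.39 and 7.91 CPM in WT and 1.86 and 1.10 in E2-KO. At such levels the gene could enter the test through other groups, so low Ly6g in these classes of E2-KO is a description. For the interaction it called 0 of 28 where 0.0623% were called, with 2 lower at the unadjusted threshold beside 3.93% of all pairs and 0 by DESeq2. In T2 against T1 it called 0 of 28, where 0% to 0.0693% of genes were called in a class. There 12 were lower at the unadjusted threshold beside 5.82% of all pairs, and 0 were called by DESeq2. In T3 against T1, which also mixes sex with time, it called 0 of 28, where 0% to 0.753% of genes were called in a class. There 1 was higher and 5 were lower at the unadjusted threshold beside 11.5% of all pairs, and 0 were called by DESeq2. The estimate was above 0 in 14 of 28 pairs for E2-KO, in 26 of 28 for G12D and in 22 of 28 for G12D/E2-KO, but pairs of 1 class share libraries and are not independent. It was above 0 in 9 of 28 for the interaction, 1 of 28 for T2 against T1 and 5 of 28 for T3 against T1. The share above 0 over all gene and class pairs was not computed. DESeq2 called 1, 2 and 2 of the 28 pairs in E2-KO, G12D and G12D/E2-KO against WT. The share of all pairs that DESeq2 called was not computed, so these counts are not results about the members.

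Ly6g within late GN was lower in the double mutant than in WT at each time point. It was at 590.3, 343 and 433 CPM in WT, 386, 372 and 455 in E2-KO, 569, 382 and 447 in G12D and 445, 221 and 246 in G12D/E2-KO. At T2 and T3 the G12D/E2-KO level lay below every other library, and at T1 it lay within the range of the others. The log2 difference from WT was −0.77 (SE 0.20, adjusted p = 0.0361, edgeR), in a class where 4.79% of 8500 genes were called for this comparison. Leaving out any single WT library ended this call, with adjusted p of 0.113, 0.0867 and 0.191 without T1, T2 and T3, as did leaving out G12D/E2-KO T2 (0.224) or T3 (0.0704). The call was also lost on the tables as deposited (adjusted p = 0.0615, edgeR), with Xist as a covariate (−0.56, adjusted p = 0.0644) and without time point in the fit, that is without the replicate block (−0.72, adjusted p = 0.343). The Xist fit is not a separate check, since leaving out G12D/E2-KO T3 gave the same −0.56.

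E2-KO and G12D did not pass in late GN, at −0.22 (SE 0.20, adjusted p = 0.626) and −0.02 (SE 0.20, adjusted p = 1, edgeR). The low Ly6g over all E2-KO cells thus stood beside a within-class level that overlapped WT and beside a small late GN class. Late GN made up 26.8%, 26.9% and 34.7% of cells in WT, 11.1%, 7.98% and 12.5% in E2-KO, 30.4%, 29.7% and 34.8% in G12D and 34.6%, 18.2% and 11.2% in G12D/E2-KO. These are shares of cells enriched with c-Kit beads, and Kit, the gene of c-Kit, had a UMI in 20.2% to 30.4% of a library's cells. The part of the enrichment in these shares was not tested. In G12D/E2-KO both the share of late GN and the Ly6g level within it were lower at T2 and T3 than at T1, and the level within late GN was also lower at T2 and T3 than at T1 in WT and G12D.

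Late GN cells were taken apart by the WT cluster each was nearest to. The level was highest in cluster 20, at 1610.1, 1477 and 1334 CPM in WT and 1109, 1144 and 910 in G12D/E2-KO. In cluster 0 it was 867, 539 and 714 in WT and 582, 315 and 379 in G12D/E2-KO, and in cluster 1 it was 499.6, 335 and 323 against 447, 252 and 210. In cluster 2 it was 343, 167.9 and 207 against 227, 95.3 and 145, and in cluster 14 it was 335, 197 and 219.7 against 217, 181 and 179. In all 5 clusters G12D/E2-KO lay below WT at each time point, and in cluster 20 all its libraries lay below all WT libraries, from 20 to 130 cells each. These values carry no test.

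**Figure D3:**
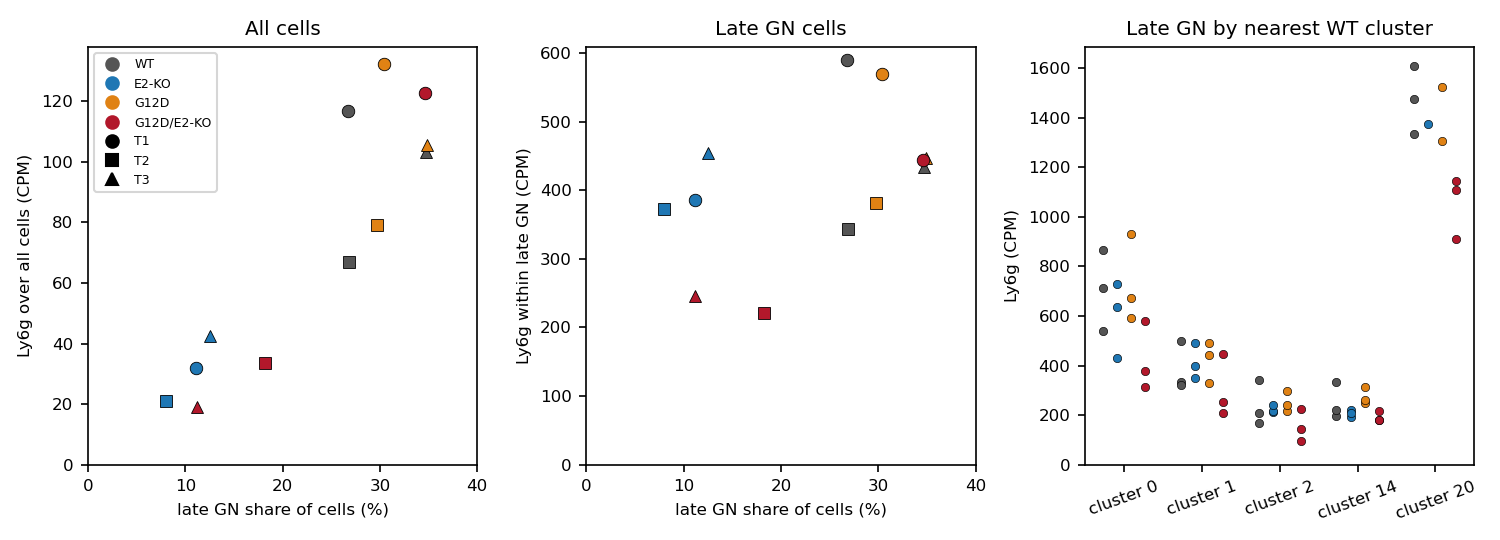
Ly6g in CPM over all cells (left) and within late GN cells (middle) against the late GN share of cells in percent, 1 point per library, and Ly6g in late GN cells by nearest WT cluster (right), with colors for genotype and symbols for time point. E2-KO libraries, with late GN shares of 7.98% to 12.5%, sit low over all cells and at 372 to 455 CPM within late GN, while G12D/E2-KO T2 and T3 sit lowest within late GN at 221 and 246.

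Ly6g was also read in erythroid cells, which should not make it. In EryP/early Ery it was at 6.68, 3.82 and 7.27 CPM in WT, 0.897, 1.05 and 1.57 in E2-KO, 5.10, 5.53 and 6.87 in G12D and 3.47, 1.34 and 0.664 in G12D/E2-KO, from 2 to 54 UMIs a library. Only WT and G12D libraries held 10 or more UMIs, so the gene entered the test through the groups in which it was high, and the fitted values are a description. The difference from WT was −2.28 on the log2 scale in E2-KO (SE 0.41, adjusted p = 0.00409, edgeR, 2.57% of genes called) and −1.66 in G12D/E2-KO (SE 0.44, adjusted p = 0.0425, edgeR, 4.23% of genes called). Without E2-KO T1 the first was no longer called (adjusted p = 0.0581), and the second was called in 7 of 21 alternatives. Of the libraries left out in turn, only E2-KO T2, E2-KO T3 and G12D/E2-KO T1 left the second call in place, and the other 9 ended it, with adjusted p from 0.0529 to 0.213 (edgeR), as did Xist as a covariate (−1.09, adjusted p = 0.112). The late GN shares given above were low in the E2-KO libraries and in G12D/E2-KO T2 and T3 but not in G12D/E2-KO T1, and the part of RNA from late GN cells in these levels was not tested.

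Ly6e went the other way in G12D/E2-KO. In EryP/early Ery it was at 284, 301 and 251 CPM in WT, 323, 346 and 237 in E2-KO, 309, 277 and 366 in G12D and 484, 308 and 471 in G12D/E2-KO. All 3 double mutant libraries lay above WT, and the log2 difference of 0.64 passed the test (SE 0.17, adjusted p = 0.0488, edgeR), which it did in 11 of 21 alternatives. It stayed called without E2-KO T2, E2-KO T3, G12D T3 or G12D/E2-KO T2, and leaving out any of the other 8 libraries ended it, with adjusted p from 0.0544 to 0.244 (edgeR), as did Xist as a covariate (0.55, adjusted p = 0.0948). In late GN, where Ly6e is otherwise low, it was at 46.8, 35.9 and 29.2 CPM in WT, 67.4, 73.4 and 45.9 in E2-KO, 57.8, 27.2 and 116 in G12D and 157, 99.1 and 113 in G12D/E2-KO. There the double mutant also lay above WT in every library, with a log2 difference of 1.57 that missed the threshold (SE 0.50, adjusted p = 0.155, edgeR). In the classes with more Ly6e, the differences of G12D/E2-KO from WT were small, 0.03 in ProMo (SE 0.20) and 0.20 in HSC/MPP (SE 0.16).

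Ly6c2 in HSC/MPP was at 159, 156 and 183 CPM in WT, 124, 147 and 249.9 in E2-KO, 280.1, 179.9 and 491 in G12D and 316, 237 and 312 in G12D/E2-KO. Both lay above WT at each time point, and G12D at T2 overlapped the WT range. The log2 difference was 0.95 in G12D (SE 0.24, adjusted p = 0.297, edgeR) and 0.83 in G12D/E2-KO (SE 0.24, adjusted p = 0.151). When each cell was classed by its own marker score instead of its nearest WT cell, the same differences were 0.22 and 0.07, so they depend on which cells are counted as HSC/MPP. In ProMo and GMP/early GN, where Ly6c2 is high, G12D differed from WT by 0.32 (SE 0.17) and 0.26 (SE 0.15), neither of which passed.

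Ly6a within ProMo was at 33.5, 28.2 and 36.3 CPM in WT, 41.0, 28.9 and 62.5 in E2-KO, 96.5, 35.0 and 110.0 in G12D and 117, 32.7 and 69.4 in G12D/E2-KO. The T2 libraries of all genotypes lay between 28.2 and 35.0, and the highest values were T1 and T3 of the genotypes with NRas G12D, with E2-KO T3 next to G12D/E2-KO T3. The log2 difference was 1.23 in G12D (SE 0.34, adjusted p = 0.587, edgeR) and 0.98 in G12D/E2-KO (SE 0.35, adjusted p = 0.167). With a library left out, that of G12D/E2-KO lay between 0.53 (without G12D/E2-KO T1) and 1.29 (without WT T2). In HSC/MPP, the class from which Sca-1+ cells are usually sorted, Ly6a was at 43.3, 21.7 and 27.8 CPM in WT, 36.7, 17.4 and 21.9 in E2-KO, 62.2, 15.7 and 129 in G12D and 80.1, 20.3 and 38.7 in G12D/E2-KO. G12D differed there by 1.18 (SE 0.57, adjusted p = 0.975, edgeR), with overlap at T2.

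Ly6c1 within GMP/early GN was at 21.6, 26.5 and 26.1 CPM in WT, 47.3, 28.3 and 38.5 in E2-KO, 37.1, 43.0 and 46.8 in G12D and 33.2, 48.4 and 30.9 in G12D/E2-KO. All 9 mutant libraries lay above the 3 WT libraries. None of the 3 differences passed the threshold, at 0.61 (SE 0.24, adjusted p = 0.238), 0.83 (SE 0.24, adjusted p = 0.376) and 0.56 (SE 0.24, adjusted p = 0.224) for E2-KO, G12D and G12D/E2-KO in edgeR.

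**Figure D4:**
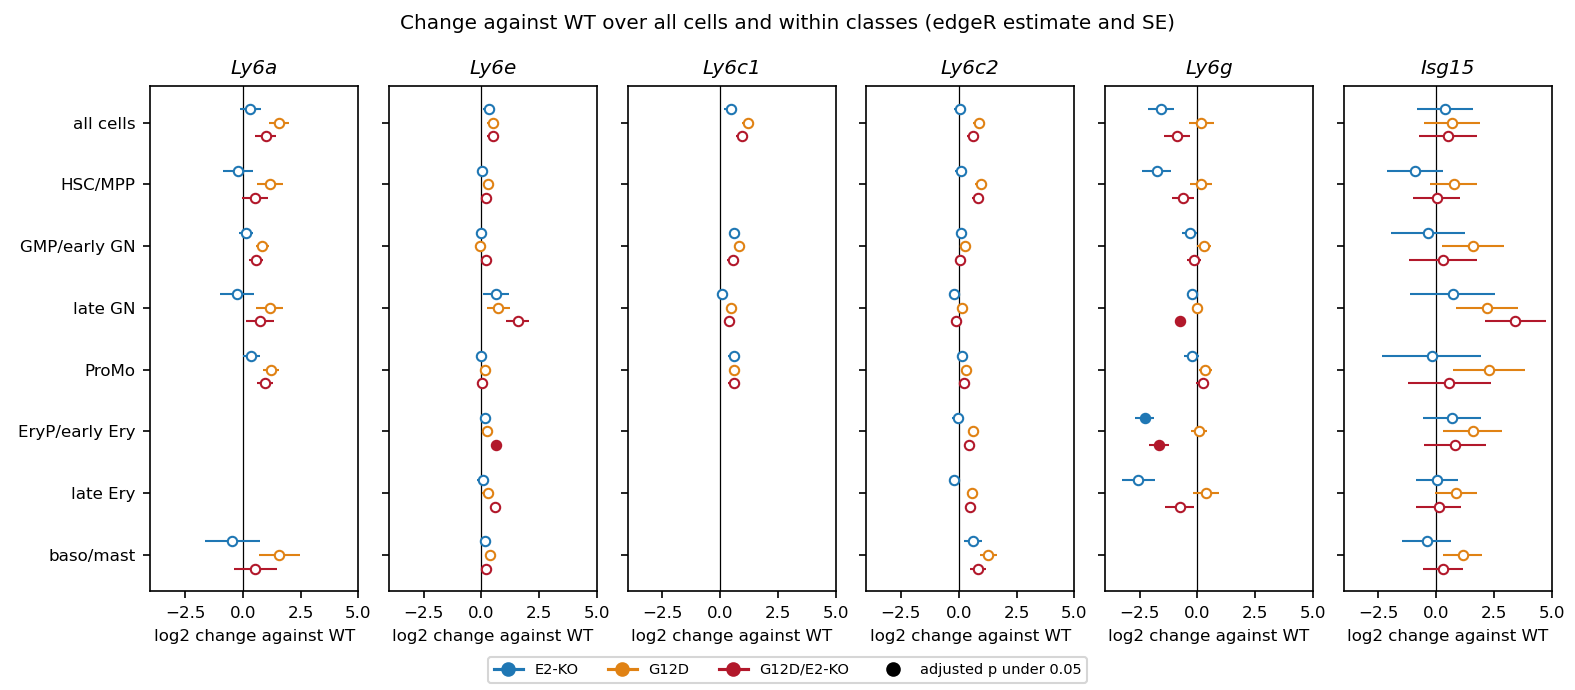
Log2 change against WT with its SE for the 5 Ly6 genes and Isg15, over all cells and within 7 classes, in E2-KO (blue), G12D (orange) and G12D/E2-KO (red). Filled points passed an adjusted p of 0.05 in edgeR, which were Ly6g in late GN and EryP/early Ery and Ly6e in EryP/early Ery; pairs left out by the filter on low counts have no point.

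The interferon response was read first from Isg15. It was at 42.8, 36.9 and 37.5 CPM in WT, 43.6, 30.8 and 92.7 in E2-KO, 55.3, 28.3 and 125 in G12D and 160.0, 32.6 and 2.20 in G12D/E2-KO. The G12D/E2-KO libraries therefore held both the highest level, at T1, and the lowest, at T3, and no genotype differed from WT in edgeR, with log2 differences of 0.38 to 0.68 and SE of 1.21 to 1.26. The mean log2 CPM of 37 interferon-response genes was highest in G12D T3 at 5.02 and G12D/E2-KO T1 at 4.83 and lowest in G12D/E2-KO T3 at 3.22. These were the same libraries as the extremes of Isg15. In E2-KO T3, with Isg15 at 92.7 CPM, the mean of the list was 3.98, beside 3.99 in WT T1. Late Ery, the class with most Isg15, made up 22.3% of cells in E2-KO T3 and 6.09% to 10.9% in WT. The part of the late Ery share in the library level of Isg15 was not tested.

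Of the 35 interferon-response genes tested over all cells, none was called in any of the 3 mutants by edgeR, and 0, 2 and 1 were higher at an unadjusted p under 0.05 in E2-KO, G12D and G12D/E2-KO, where 16.1%, 11.8% and 26.2% of all genes were below it and 1.59%, 0.109% and 5.69% were called. Their median log2 difference was 0.18, 0.88 and 0.48. In late GN of G12D/E2-KO all 28 tested genes of the list were above 0, with a median of 2.14 and 17 at an unadjusted p under 0.05, where 20% of all genes tested in late GN were below it, and 1 of them was called (Herc6, 1.09, SE 0.30, adjusted p = 0.0362, edgeR), beside 4.79% of all genes there. In the other 6 classes of G12D/E2-KO the median of the list lay between 0.06 and 0.55, with 0 genes higher at the unadjusted threshold. In G12D, 27 of 28 genes were above 0 in late GN, with a median of 1.12, and the medians of the other 6 classes were 0.45 to 0.92. In late GN of E2-KO, 19 of 28 were above 0, with a median of 0.32. Isg15 itself ran from 4.44 to 129 CPM in late GN of the G12D/E2-KO libraries, beside 4.71 to 8.69 in WT.

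Member levels were then set against Isg15 across the 12 libraries, on log2 CPM. Ly6g had the highest correlation (Pearson r = 0.62, permutation p = 0.0180, adjusted over the 5 members 0.0901, Spearman rho = 0.64, permutation p = 0.0296), which fell to r = 0.28 without the 2 libraries farthest from the median of Isg15, G12D/E2-KO T3 and T1. Ly6a had r = 0.42 (permutation p = 0.187, adjusted 0.468) and rho = 0.60 (permutation p = 0.0435, adjusted 0.109), and without the same 2 libraries r was 0.69 (permutation p = 0.0255, adjusted 0.127). Ly6e, Ly6c1 and Ly6c2 had r of 0.22, 0.19 and 0.22 and rho of 0.37, 0.34 and 0.32, none of which passed. No member passed in this family of 5 relations. Against the mean of the interferon-response list, r was 0.72 for Ly6a (permutation p = 0.0122, adjusted 0.0608) and 0.62 for Ly6e (permutation p = 0.0303, adjusted 0.0757), with rho of 0.54 (permutation p = 0.0772) and 0.59 (permutation p = 0.0442). Ly6c2, Ly6c1 and Ly6g had r of 0.56, 0.51 and 0.50, with adjusted permutation p from 0.0918 to 0.0956. Without the 2 libraries farthest from the median of the list, G12D T3 and G12D/E2-KO T1, r lay between −0.038 and 0.31 for the 5 members, so these relations rest on those libraries.

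Cells of 1 library differ in Isg15, so cells with at least 1 Isg15 UMI were compared with cells without, once per library. Positive cells were 30 to 1096 per library, or 1.15% of cells in G12D/E2-KO T3 to 36.0% in G12D/E2-KO T1, and had the higher median UMI number in 5 of 12 libraries. Late Ery held 40.6% to 67.4% of a library's Isg15 UMIs on average in each genotype, and how many single Isg15 UMIs in other classes came from free RNA was not measured. Over all cells, Isg15-positive cells had less Ly6c2, by a mean log2 difference of −1.12, and less Ly6c1, by −0.78, lower in 12 of 12 libraries for both (exact sign-flip permutation test, two-sided, p = 0.000488, the smallest it can give, adjusted over the 5 members 0.00122). Ly6e was also lower, by −0.22, in 10 of 12 libraries (exact permutation p = 0.0151, adjusted 0.0252), but this call was lost without WT T2, any E2-KO library, G12D/E2-KO T1 or G12D/E2-KO T2 (adjusted 0.0505 each, exact permutation) and with every cell thinned to 1400 UMIs (adjusted 0.0993). Thinned cells gave −1.32 for Ly6c2 and −1.11 for Ly6c1, again lower in 12 of 12 libraries. Ly6a differed by −0.05 (adjusted p = 0.773, exact permutation) and Ly6g by −0.57 (adjusted p = 0.117, exact permutation), which passed only without G12D/E2-KO T3 (−0.76, adjusted p = 0.0256, exact permutation). Late Ery, which holds the most Isg15 and little Ly6c2, made up 9.53% to 61.0% of Isg15-positive cells and 3.29% to 22.3% of all cells.

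Ly6g split by genotype in this comparison. The 3 G12D/E2-KO libraries gave 0.50, 0.99 and 1.59, and the other 9 libraries lay between −1.96 and −0.46. The T3 value rests on 30 positive cells with 9 Ly6g UMIs. Late GN, which holds most Ly6g, made up 39.9% (T1), 28.3% (T2) and 13.3% (T3) of positive cells in the double mutant and 2.41% to 28.5% in the other libraries, and its part in the split was not tested. This split was noticed after the values were seen, and no test of it was run.

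When positive and negative cells were compared within classes and the classes weighted equally, the order changed. Ly6a was then higher in Isg15-positive cells, by 0.23 on the log2 scale in 10 of 11 libraries (exact permutation p = 0.00293, adjusted 0.0146). The other 4 did not pass, at 0.05 for Ly6e, −0.12 for Ly6c1, −0.15 for Ly6c2 and −0.12 for Ly6g, with adjusted exact permutation p from 0.238 to 0.356. In HSC/MPP Ly6a was higher in the Isg15-positive cells of all 7 libraries that held enough of them, by 0.80 on average and between 0.23 and 1.36, and in B lymphoid cells by 0.77 in 4 of 5 libraries. In the other classes the mean lay between −0.0823 in late Ery (4 of 10 libraries higher) and 0.14 in GMP/early GN (2 of 4). Ly6e was higher in 10 of 11 libraries within EryP/early Ery, by 0.13 on average. Within HSC/MPP, Ly6c2 differed by −0.58 on average and was higher in the Isg15-positive cells of 2 of 7 libraries. The part of different kinds of cells within HSC/MPP in these differences was not tested.

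**Figure D5:**
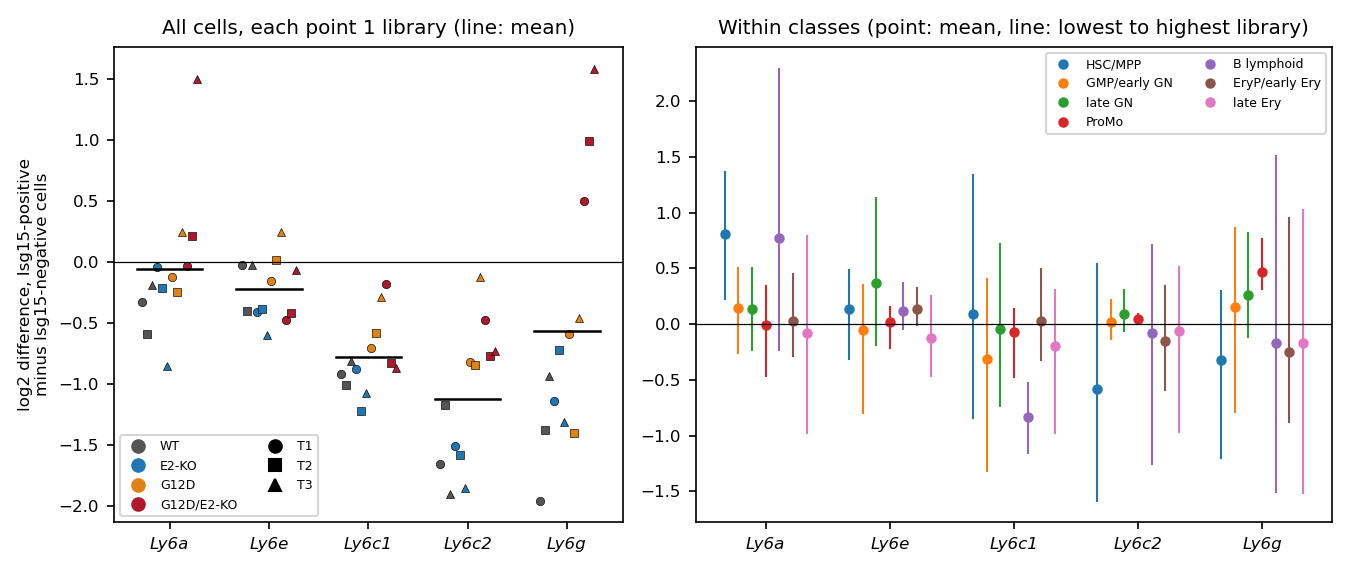
Log2 difference of each Ly6 gene between Isg15-positive and Isg15-negative cells over all cells of a library (left, 1 point per library, colors for genotype, line for the mean) and within classes (right, point for the mean and line from the lowest to the highest library). Ly6c2 lies below 0 in all 12 libraries on the left, Ly6g lies above 0 only in the 3 G12D/E2-KO libraries, and Ly6a in HSC/MPP lies above 0 in all 7 libraries on the right.

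Members were also fitted with each library's Isg15 level as a covariate and in cells without an Isg15 UMI, which may still hold cells with an interferon response. The covariate was the level over all cells, of which late Ery held 40.6% to 67.4% on average in each genotype. It may therefore carry the share of late Ery as well as the interferon response. Its values farthest from the median of 40.1 CPM were those of G12D/E2-KO T3 (2.20) and T1 (160). The covariate thus partly marks double mutant libraries, and calls gained with it do not separate interferon from genotype. For Ly6g in late GN of G12D/E2-KO the difference was −0.71 with Isg15 in the fit (adjusted p = 0.00478, edgeR) and −0.82 in Isg15-negative cells (adjusted p = 0.0182, edgeR). For Ly6c2 in HSC/MPP of G12D it was 0.85 (adjusted p = 0.0130, edgeR) and 0.76 (adjusted p = 0.396), and for Ly6a in ProMo of G12D it was 1.11 (adjusted p = 0.00944) and 1.19 (adjusted p = 0.448). Over all cells the covariate gave Ly6g differences of −1.77 in E2-KO (adjusted p = 0.00103, edgeR) and −0.86 in G12D/E2-KO (adjusted p = 0.0283). In Isg15-negative cells neither passed, at −1.60 (adjusted p = 0.18, edgeR) and −1.20 (adjusted p = 0.193). The fit of E2-KO and WT alone gave −1.64 (adjusted p = 0.000108). With 1 library per genotype and time point, a difference in interferon response between mice cannot be fully told apart from genotype.

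Other genes of the Ly6 family were read by count. Of 21 listed, 18 were in the tables and 7 were tested over all cells, where edgeR called 0 in each of the 3 mutants against WT. At an unadjusted p under 0.05 there were 3 higher and 1 lower in E2-KO, 1 higher in G12D and 1 higher in G12D/E2-KO, among shares of all genes of 16.1%, 11.8% and 26.2%, with 1.59%, 0.109% and 5.69% of all genes called. Within GMP/early GN and EryP/early Ery, where 3 of the genes were tested in each, the calls were Ly6i in GMP/early GN of G12D/E2-KO, at 1.03 (SE 0.25, adjusted p = 0.0284, edgeR), and Gml in EryP/early Ery of E2-KO, at 1.15 (SE 0.26, adjusted p = 0.0253), and of G12D/E2-KO, at 1.06 (SE 0.29, adjusted p = 0.0479), beside 2.62%, 2.57% and 4.23% of genes called. Gml was low, at 0.304 to 4.77 CPM over all cells. Ly6i lies between Ly6e and Ly6a on chromosome 15, from 74979534 to 74983430 on the minus strand. Over all cells it was at 177.9 CPM in G12D T1 and 168 in G12D/E2-KO T1, with 19.1 to 137 in the other libraries.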

How the data were processed

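The authors aligned reads of each sample to mm10 with Cell Ranger, removed cells with a high mitochondrial share and doublets scored by Scrublet, and deposited raw UMI counts per gene and cell. No further doublet caller was run. No annotation of single cells was used here. Cells found in 2 tables (cosine above 0.9) were counted once. WT cells were clustered (scanpy 1.11.5; 2000 variable genes less 28 Ly6, interferon and sex-linked genes, 50 components, 15 neighbours, Leiden resolution 2), 25 of 28 clusters were named from marker lists, and mutant cells took the class of the nearest WT cell.

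Counts summed per library, or per library and class with at least 20 cells, were tested with edgeR 4.0.16 (TMM, filterByExpr, robust quasi-likelihood, genotype and time point as factors, Benjamini-Hochberg over all genes tested, threshold 0.05). Time points are the replicates of a genotype, and genotypes those of a time point. With both as factors, p-values rest on the spread left after the shared effects of time and genotype. They do not measure the spread between mice. The code was tested on simulated counts. DESeq2 1.42.0 was an alternative. Log differences between Isg15-positive and -negative cells used a pseudocount of 5 CPM, with exact sign-flip tests over libraries, and correlations used 100000 permutations. Named genes were the 5 members, Isg15, listed genes that passed, and the 3 genes most like each member, of which 1 is not reported here. Members and lists were chosen with earlier results of these data known.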

Additional observations from a re-analysis of the deposited data

How the results depend on the processing

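Counts of called members shifted with the fit, and the cause was not tested. The share of all genes called was computed only for the main fit. The counts under other fits therefore have no background beside them and are not results about the members. Without the replicate block (genotype alone, time points no longer paired), 1 member was called over all cells in G12D/E2-KO against WT and 1 pair within classes, in place of 0 and 3, and the Ly6g call in late GN was lost (adjusted p = 0.343, edgeR). DESeq2 called 2 in G12D and 1 in G12D/E2-KO over all cells and 1, 2 and 2 pairs within classes in E2-KO, G12D and G12D/E2-KO. With Isg15 as a covariate, the counts were 1 in E2-KO, 2 in G12D/E2-KO and 1 in G12D/E2-KO against E2-KO over all cells, and 2, 2 and 6 pairs within classes in E2-KO, G12D and G12D/E2-KO. With Xist as a covariate, which was chosen after seeing the data, they were 1 in E2-KO, 1 in G12D/E2-KO, 1 in G12D/E2-KO against E2-KO and 1 in T3 against T1 over all cells, and 2, 1 and 5 within classes in E2-KO, G12D and G12D/E2-KO. The 5 in G12D/E2-KO (Ly6a, Ly6c1 and Ly6c2 in ProMo, Ly6c1 in GMP/early GN and Ly6c2 in HSC/MPP) hold 0 of the 3 pairs called without the covariate. Beside time point, the Xist covariate is close to marking G12D/E2-KO T3 alone, so it repeats much of leaving that library out. Without the filter on low counts, the class counts were 2, 6 and 6, and on the tables as deposited the count for G12D/E2-KO was 0. Fitting only E2-KO and WT gave 1 member.

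Leaving out each library in turn gave 0 to 1 members over all cells in E2-KO, in G12D/E2-KO and in G12D/E2-KO against G12D. Within classes it gave 0 to 2, 0 to 2 and 0 to 6 pairs in E2-KO, G12D and G12D/E2-KO against WT. Among Isg15-positive cells 3 members were called, 2 to 4 with a library left out, and 1 within classes. Directions turned for Ly6g in G12D (−0.0201 with the Isg15 covariate, −0.0236 to 0.37 with a library left out), Ly6c2 in E2-KO (−0.22 to 0.28 with a library left out), Ly6a in Isg15-positive cells (0.23 within classes, 0.14 with cells thinned to 1400 UMIs, −0.20 to 0.0181 with a library left out) and Ly6e in them (0.0478 within classes). Of 719 values for single genes under an alternative, 626 kept their direction and their side of the threshold, 42 lost the call, 42 gained it and 9 turned.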
